A study of Arabidopsis thaliana with 24 samples.

Results

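EVADE (locus AT5G17125) and ATTRAPE (AT1G34967) are the 2 copies of the Arabidopsis thaliana retrotransposon family ATCOPIA93 whose DNA methylation is described here. They were taken by locus name from a table of 69289 annotated features, together with the 2 transposable element rows that overlap them. Methylation was measured by bisulfite sequencing, which turns unmethylated cytosines into a base read as T and leaves methylated ones as C. All plants were of the accession Col-0 and grew in 16 h of light and 8 h of dark. The genotypes were wt21, which is read here as the wild type, and the argonaute mutants ago5, ago9 and ago59. The label ago59 combines those of the first pair, and no alleles are stated for any mutant. The source of the sperm nuclei was pollen from plants aged 35 days, of which 50000 nuclei went into a replicate. The stem-cell nuclei were obtained from seedlings aged 7 days by sorting on mCherry, a red fluorescent reporter, and a replicate held 3000 to 4000 of them. In consequence each difference between the cell types is also one of tissue, age, sorting and number of nuclei. The labels list 24 samples and 2 replicates in each of the 8 groups, but the table holds 1 pooled column per group and context. Expression was not measured, so the labelled cell types and mutants could not be checked with markers or transcripts. No spread between replicates could be computed, no test was run, and every interval given below is a 95% interval for counting error alone. Calls that lie on the same read are not independent, so the true uncertainty is wider than these intervals.

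Copia elements are retrotransposons, which copy themselves through an RNA that is reverse transcribed and inserted elsewhere. They carry a long terminal repeat at each end, and the first repeat holds the promoter. Between the repeats lies an open reading frame for a capsid protein, a protease, an integrase and a reverse transcriptase. EVADE is known for becoming mobile in Arabidopsis lines that have lost DNA methylation, whereas ATTRAPE is the near-identical second full-length copy in the Col-0 genome. In plants, cytosines are methylated in the contexts CG, CHG and CHH, where H is any base but G. CG methylation is maintained by MET1, CHG methylation by CMT3, and CHH methylation by CMT2 and by the RNA-directed pathway. In that pathway an ARGONAUTE protein loaded with a small RNA recruits the methyltransferase DRM2. AGO9 is a close relative of AGO4, the main ARGONAUTE of that pathway, and AGO5 is known from reproductive cells.

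The EVADE element, row AT5TE20395, spans chr5:5629978-5635310 (TAIR10, forward strand), which is 5333 bases. The gene row inside it spans chr5:5630538-5634764, which is 4227 bases. The ATTRAPE element, row AT1TE41580, spans chr1:12755060-12760395, which is 5336 bases, and its gene row spans chr1:12755620-12759846, again 4227 bases. The reference annotation lists both gene rows as pseudogenes. The repeats of EVADE cover positions 1 to 411 and 4924 to 5333 of the element and differed from each other by 1 gap base. The repeats of ATTRAPE cover positions 1 to 406 and 4925 to 5330 and were identical. The start of the first EVADE repeat is shown because the ends of both elements are compared with their interiors further on. CG dinucleotides are in capitals.
EVADE, bases 1 to 300, chr5:5629978-5630277, forward strand: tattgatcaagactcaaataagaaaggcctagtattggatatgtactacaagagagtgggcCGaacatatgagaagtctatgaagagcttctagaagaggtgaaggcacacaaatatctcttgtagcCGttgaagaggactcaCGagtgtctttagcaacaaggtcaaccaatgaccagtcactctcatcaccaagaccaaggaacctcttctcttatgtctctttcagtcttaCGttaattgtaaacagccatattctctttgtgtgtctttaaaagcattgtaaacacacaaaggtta

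Reverse transcription of a copia element starts at a primer binding site just inside the first repeat, where a transfer RNA pairs with the element. The motif TGGTATCAGAGC is the reverse complement of the last 9 bases of 8 of the 28 methionine transfer RNA genes in the reference followed by the CCA that is added to every transfer RNA. On both strands it occurred once in each element, on the forward strand at position 407, and it occurred in 1.84% of genome windows of 5333 bases. It is shown in capitals with its surroundings. The base that follows it differed between the copies (A419T, with the EVADE base first and positions counted from 1 at the start of the EVADE element).
EVADE, chr5:5630369-5630410, forward strand: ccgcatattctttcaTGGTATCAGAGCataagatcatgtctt
ATTRAPE, chr1:12755451-12755492, forward strand: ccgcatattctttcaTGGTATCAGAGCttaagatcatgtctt

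The sequences of EVADE and ATTRAPE differed by 28 substitutions over 5333 aligned bases, an identity of 99.5%, and by 3 gap bases. Of these substitutions, 22 lay in the gene row. The longest stretch of the gene row with no difference was 940 bases. After bisulfite treatment an unmethylated C and a T are read alike on one strand, and an unmethylated G:C pair and an A:T pair on the other. Of the 22 substitutions, 6 exchanged C and T and 8 exchanged G and A, which leaves 8 that can be seen on reads of either strand. One of each kind is printed, with the differing base in capitals. C1374T is hidden on reads of the top strand where the C is unmethylated, G2166A is hidden likewise on reads of the bottom strand, and G3061C is seen on both. C3228T is added because EVADE has a CG there that ATTRAPE lacks.
EVADE at C1374T, chr5:5631331-5631371: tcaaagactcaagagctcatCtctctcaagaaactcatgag
ATTRAPE at C1374T, chr1:12756413-12756453: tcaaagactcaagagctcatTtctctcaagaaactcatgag
EVADE at G2166A, chr5:5632123-5632163: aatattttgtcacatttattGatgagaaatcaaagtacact
ATTRAPE at G2166A, chr1:12757205-12757245: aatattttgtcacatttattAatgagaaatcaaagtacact
EVADE at G3061C, chr5:5633018-5633058: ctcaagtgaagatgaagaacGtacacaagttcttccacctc
ATTRAPE at G3061C, chr1:12758100-12758140: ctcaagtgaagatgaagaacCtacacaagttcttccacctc
EVADE at C3228T, chr5:5633185-5633225: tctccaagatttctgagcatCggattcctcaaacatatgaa
ATTRAPE at C3228T, chr1:12758267-12758307: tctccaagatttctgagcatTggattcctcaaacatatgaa

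Because so few bases separate the copies, the share of windows found once in the whole genome after full conversion was computed for the gene rows, averaged over both strands. In EVADE it was 14.4% of 50-base windows, 27.7% of 100-base windows and 37.9% of 150-base windows. In ATTRAPE it was 14.3%, 27.0% and 36.0% at the same lengths. Without conversion 41.4% of the 100-base windows of EVADE were unique. Most fully converted windows of these lengths in either gene row thus cannot be assigned to 1 copy. The share of positions covered by at least 1 unique window was not computed. The read length and the treatment of reads with several matches are not given in the sources used here. A call counted for EVADE may therefore stem from ATTRAPE and the reverse, wherever such reads were kept.

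**Figure D1:**
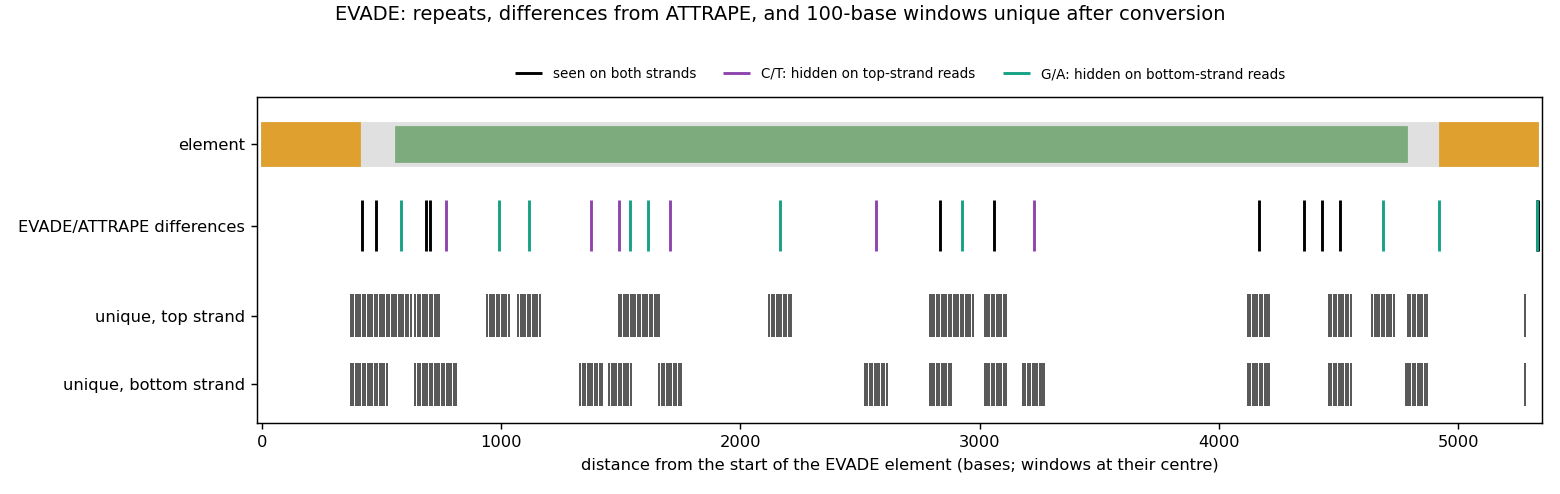
Map of the EVADE element, with distance in bases from its start. The top bar shows the terminal repeats (orange), the gene row (green) and the remaining bases (grey), the coloured ticks show the 28 substitutions that separate EVADE from ATTRAPE, and the lower rows mark the centres of 100-base windows that are unique in the genome after conversion of the top or the bottom strand. Unique windows lie around substitutions and leave most of the element bare, but no marked window covers C4354A on either strand.

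Depth was low at both copies. The pools held between 204779091 and 303354876 calls in all. In stem-cell pools EVADE had between 1.50 and 2.52 calls per cytosine and ATTRAPE between 1.00 and 1.96, depending on pool and context. These depths were 30.5% to 45.8% and 24.2% to 36.2% of the median of the other transposable element genes. In sperm pools EVADE had between 0.810 and 1.59 calls per cytosine and ATTRAPE between 0.959 and 1.46. Summed over contexts, EVADE had 1.31, 1.20, 1.36 and 1.03 times the calls of ATTRAPE in the stem-cell pools of wt21, ago5, ago9 and ago59. In the sperm pools the ratio was 0.940, 0.977, 1.12 and 0.914. The ratio was above 1 in all 4 stem-cell pools and on both sides of 1 in the sperm pools.

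CG methylation was high at both copies in every pool, and the lowest sperm value belonged to EVADE in ago59. In stem-cell nuclei EVADE was methylated at 363 of 460 CG calls in wt21 (78.9%, interval 75.0 to 82.4), 399 of 475 in ago5 (84.0%), 273 of 339 in ago9 (80.5%) and 260 of 339 in ago59 (76.7%). In sperm nuclei it was methylated at 229 of 238 CG calls in wt21 (96.2%, interval 93.0 to 98.0), 212 of 235 in ago5 (90.2%), 261 of 286 in ago9 (91.3%) and 145 of 183 in ago59 (79.2%, interval 72.8 to 84.5). The sperm pools of wt21, ago9 and ago5 thus lay above all stem-cell pools, and the ago59 sperm pool lay among the stem-cell pools. In the order of the 8 levels, wt21 sperm stood apart from ago9 sperm and ago5 sperm stood apart from ago5 stem-cell nuclei, whereas the other 5 pairs of neighbours had an interval of the difference that held 0.

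For ATTRAPE the CG levels of the cell types did not overlap. In stem-cell nuclei it was methylated at 283 of 332 CG calls in wt21 (85.2%, interval 81.0 to 88.7), 266 of 320 in ago5 (83.1%), 187 of 223 in ago9 (83.9%) and 276 of 314 in ago59 (87.9%). In sperm nuclei it was methylated at 260 of 267 CG calls in wt21 (97.4%, interval 94.7 to 98.7), 233 of 244 in ago5 (95.5%), 227 of 241 in ago9 (94.2%) and 205 of 213 in ago59 (96.2%, interval 92.8 to 98.1). All 4 sperm pools were above all 4 stem-cell pools, and the only neighbours in the order whose difference left out 0 were ago9 sperm and ago59 stem-cell nuclei. The median CG level of the other transposable element genes was between 82.8% and 83.9% in the stem-cell pools and was 97.7% in all 4 sperm pools. These medians did not overlap between cell types either, and the share of features without overlap was not computed.

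**Figure D2:**
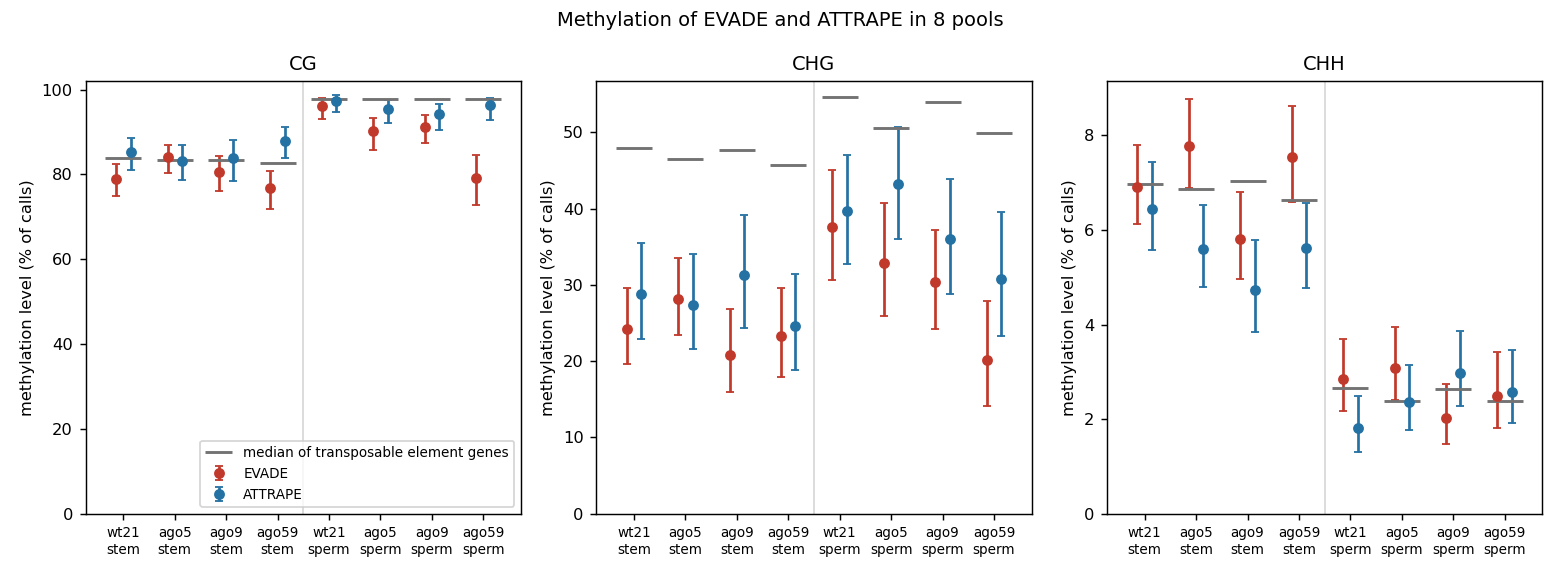
Methylation level in percent of calls for EVADE (red) and ATTRAPE (blue) in the 8 pools, in separate panels for CG, CHG and CHH. Points are levels over the gene row, bars are 95% Wilson intervals for counting error, and grey lines are the medians of the other transposable element genes. In the CG panel the ago59 sperm pool of EVADE sits at 79.2%, below the other sperm points.

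CHG methylation was low for transposable element genes at both copies. EVADE was methylated at 68 of 280 CHG calls in wt21 stem-cell nuclei (24.3%, interval 19.6 to 29.6), 85 of 302 in ago5 (28.1%), 44 of 211 in ago9 (20.9%) and 47 of 202 in ago59 (23.3%). In sperm nuclei the values were 64 of 170 in wt21 (37.6%, interval 30.7 to 45.1), 50 of 152 in ago5 (32.9%), 58 of 191 in ago9 (30.4%) and 26 of 129 in ago59 (20.2%, interval 14.1 to 27.9). The ago59 sperm pool was the lowest of the 8 for EVADE, below every stem-cell pool, and no neighbours in the order were set apart by their intervals. ATTRAPE was methylated at 57 of 198 CHG calls in wt21 stem-cell nuclei (28.8%), 54 of 197 in ago5 (27.4%), 46 of 147 in ago9 (31.3%) and 43 of 175 in ago59 (24.6%). In sperm nuclei its values were 69 of 174 in wt21 (39.7%), 73 of 169 in ago5 (43.2%), 54 of 150 in ago9 (36.0%) and 37 of 120 in ago59 (30.8%). The sperm values overlapped the stem-cell values, since ago59 sperm lay below ago9 stem-cell nuclei. The medians of the other transposable element genes were between 45.7% and 47.9% in the stem-cell pools and between 49.9% and 54.7% in the sperm pools. In wt21 stem-cell nuclei 9.94% of these genes had a lower CHG level than EVADE and 11.6% a lower level than ATTRAPE.

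CHH methylation was lower in sperm than in stem-cell nuclei in the gene rows of both copies. Between 15.3% and 75.7% of the other transposable element genes had a lower CHH level than the copies, depending on copy and pool. EVADE was methylated at 242 of 3499 CHH calls in wt21 stem-cell nuclei (6.92%, interval 6.12 to 7.81), 242 of 3110 in ago5 (7.78%), 145 of 2493 in ago9 (5.82%) and 194 of 2573 in ago59 (7.54%). In sperm nuclei it was methylated at 52 of 1832 in wt21 (2.84%), 59 of 1915 in ago5 (3.08%), 39 of 1932 in ago9 (2.02%) and 37 of 1480 in ago59 (2.50%). ATTRAPE was methylated at 174 of 2700 CHH calls in wt21 stem-cell nuclei (6.44%), 153 of 2735 in ago5 (5.59%), 88 of 1864 in ago9 (4.72%) and 143 of 2548 in ago59 (5.61%). In sperm nuclei it was methylated at 35 of 1942 in wt21 (1.80%), 46 of 1944 in ago5 (2.37%), 52 of 1752 in ago9 (2.97%) and 42 of 1627 in ago59 (2.58%). For both copies the cell types did not overlap. The medians of the other transposable element genes did not overlap either. They were between 6.63% and 7.04% in the stem-cell pools and between 2.38% and 2.66% in the sperm pools. The share of features without overlap was not computed. The chloroplast genome is commonly taken as unmethylated, and its CHH level as a measure of cytosines that escaped conversion. This rate was between 0.303% and 0.312% in the stem-cell pools, which held at least 7664120 such calls each, against at most 32063 in the sperm pools. In the sperm pools it was 1.37% for wt21, 1.34% for ago5, 4.56% for ago9 and 1.06% for ago59, so the ago9 rate exceeded the CHH level of both copies in that pool. It also exceeded the median of the other transposable element genes, which was 2.64% in ago9 sperm and 2.66% in wt21 sperm. The chloroplast rate of ago9 sperm therefore cannot be the share of unconverted cytosines at these nuclear features, and whether the rates of the other sperm pools hold for them was not tested.

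In sperm nuclei EVADE was lower than wt21 in CG in all 3 mutants, most of all in ago59. All mutants share the 1 wt21 pool of their cell type, so their differences are not independent. The difference was -17.0 points in ago59 (interval -23.7 to -10.8), -6.01 in ago5 (interval -10.8 to -1.46) and -4.96 in ago9 (interval -9.20 to -0.704). The unmethylated calls behind these values numbered 38 of 183 in ago59, 23 of 235 in ago5, 25 of 286 in ago9 and 9 of 238 in wt21. The interval of the ago59 level lay below those of the other 3 sperm pools, ago5 and ago9 included. A difference counts here as called when it is at least 10 points with at least 10 calls in each pool. Of all features, 2.35% were called lower in CG in ago59 sperm, and of the other transposable element genes 23 of 3776, or 0.609%. EVADE was called and ATTRAPE was not. Only 5 of the 3776 had a lower difference than EVADE, and the median of the class was -0.03 points.

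ATTRAPE did not differ from wt21 in sperm CG by more than counting error. Its differences from wt21 were -1.13 points in ago59 (interval -4.86 to 2.13), -1.89 in ago5 (interval -5.53 to 1.45) and -3.19 in ago9 (interval -7.13 to 0.363). All 3 intervals held 0, and their lowest bound, -7.13, was above the interval of EVADE in ago59. With the calls of both copies summed, which does not depend on how reads were divided between this pair, ago59 sperm was at 88.4% and wt21 sperm at 96.8%, a difference of -8.45 points (interval -12.2 to -5.06), which is not called at 10 points. The sum still depends on reads shared with a partial copy before ATTRAPE, described further on, and on whether reads with several matches were kept.

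**Figure D3:**
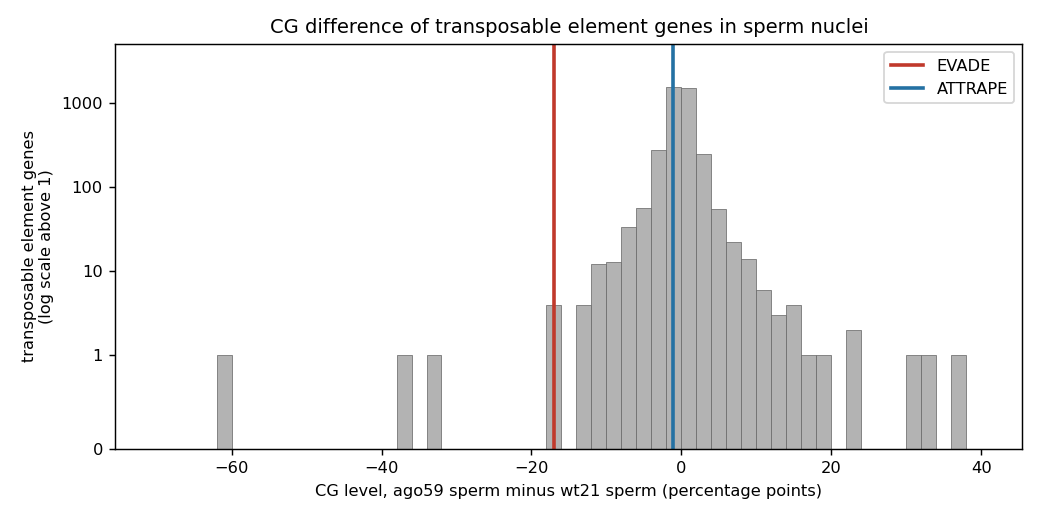
Distribution of the CG difference between ago59 and wt21 sperm pools, in percentage points, over the 3776 other transposable element genes, with their number on an axis that is logarithmic above 1. Vertical lines mark EVADE at -17.0 points (red) and ATTRAPE at -1.13 points (blue), and 5 genes lie below EVADE.

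The CHG level of EVADE was lower in ago59 sperm too, by a similar number of points. It differed from wt21 by -17.5 points (interval -27.1 to -7.10), against -4.75 in ago5 (interval -15.0 to 5.69) and -7.28 in ago9 (interval -16.9 to 2.47). Called CHG differences were more common than in CG. They covered 6.57% of all features in the lower direction and 11.1% of the other transposable element genes, whose median was -4.43 points. EVADE was called, ATTRAPE was not, and 70 of 3762 genes had a lower difference than EVADE. ATTRAPE differed from wt21 by -8.82 points in ago59 (interval -19.4 to 2.36), 3.54 in ago5 (interval -6.82 to 13.8) and -3.66 in ago9 (interval -14.0 to 6.91). With both copies summed the ago59 difference was -13.4 points (interval -20.6 to -5.75).

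In stem-cell nuclei no mutant differed from wt21 by 10 points in the gene row of EVADE or ATTRAPE in any context. EVADE differed from wt21 in CG by 5.09 points in ago5 (interval 0.103 to 10.1), 1.62 in ago9 (interval -4.11 to 7.15) and -2.22 in ago59 (interval -8.13 to 3.55). ATTRAPE differed by -2.12 in ago5, -1.38 in ago9 and 2.66 in ago59, with intervals that all held 0. In CHG the differences of both copies ranged from -4.22 to 3.86 points and all 6 intervals held 0. Called differences in either direction covered 8.57% of all features in ago5, 9.03% in ago9 and 9.07% in ago59 for CG, and 8.42%, 8.60% and 8.52% for CHG.

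CHH differences of the gene rows ranged from -1.72 to 1.17 points. In stem-cell nuclei only 1 of the 6 intervals left out 0, that of ATTRAPE in ago9, at -1.72 points (interval -3.04 to -0.355). The background of called CHH differences in stem-cell nuclei was 4.19% for ago5, 4.76% for ago9 and 4.23% for ago59. In sperm nuclei ATTRAPE in ago9 was higher by 1.17 points (interval 0.182 to 2.20), and this turned to -2.11 points once each pool was corrected for its chloroplast rate, which in ago9 sperm was above the level itself. The other 5 sperm intervals held 0, and the background was 4.00% for ago5, 3.81% for ago9 and 4.00% for ago59. For the ago5 sperm pool 4.32% of features were called in either direction in CG and 8.19% in CHG, and for the ago9 sperm pool 4.56% and 7.58%, with neither copy among them. Over both gene rows, cell types, mutants and contexts, 7 of 36 intervals left out 0, of which 5 belonged to EVADE and 2 to ATTRAPE. The share of all features whose interval leaves out 0 was not computed, so this count has no background to be read against. The same holds for the other counts of intervals given here.

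**Figure D4:**
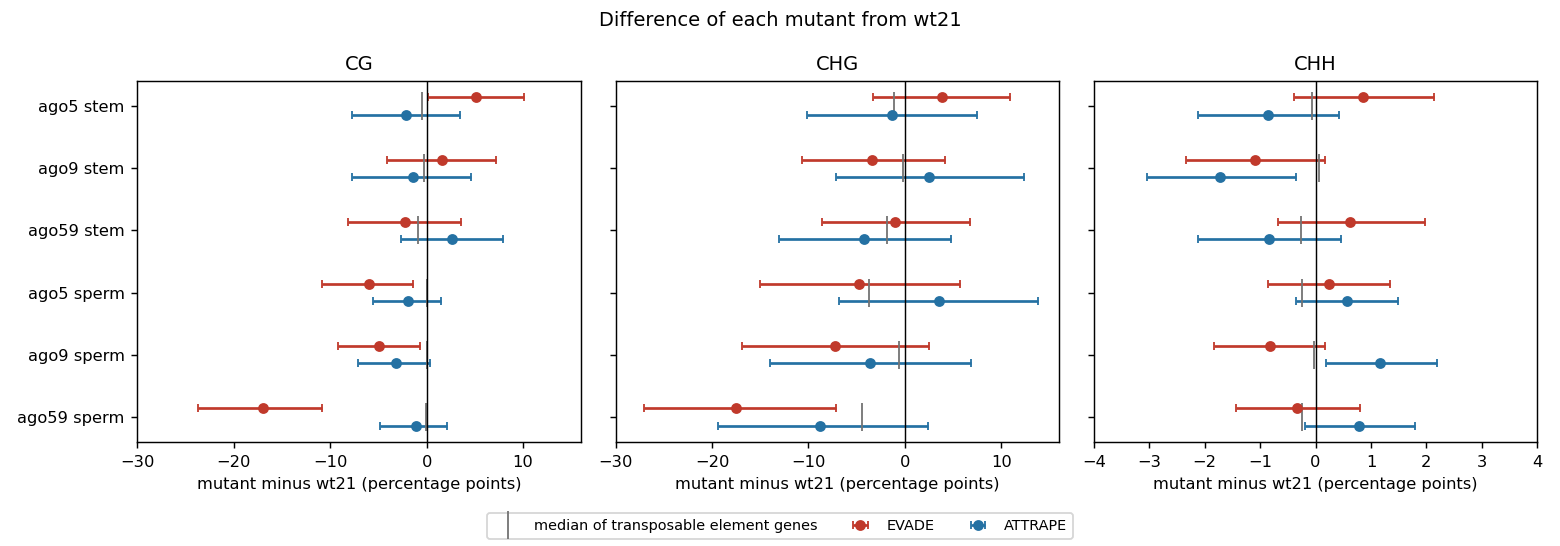
Difference of each mutant pool from the wt21 pool of the same cell type, in percentage points, for EVADE (red) and ATTRAPE (blue) in CG, CHG and CHH. Bars are 95% Newcombe intervals for counting error and grey ticks are medians of the other transposable element genes. The ago59 sperm values of EVADE in CG and CHG, at -17.0 and -17.5 points, lie farthest from 0.

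The stem-cell difference of each mutant from wt21 was then subtracted from its sperm difference. For EVADE in CG this was -14.8 ± 8.70 points in ago59, -11.1 ± 6.80 in ago5 and -6.58 ± 7.02 in ago9, where ± gives the half-width of the 95% interval. Of the other transposable element genes, 34 of 3769 were lower than EVADE in ago59. In CHG the EVADE value was -16.5 ± 12.7 points in ago59. For ATTRAPE in CG the values were -3.79 ± 6.27 in ago59, 0.23 ± 6.57 in ago5 and -1.80 ± 7.20 in ago9, so all 3 intervals held 0.

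In wt21 both copies had higher CG levels in sperm than in stem-cell nuclei. EVADE was 17.3 points higher in CG in sperm than in stem-cell nuclei (interval 12.5 to 21.6) and ATTRAPE 12.1 (interval 7.79 to 16.6), against a median of 13.0 in the class. Of the class, 85.6% had a lower difference than EVADE and 40.4% a lower one than ATTRAPE. In ago59 the EVADE difference was 2.54 points (interval -5.15 to 9.64), and 221 of 3774 transposable element genes had a lower one. In ago5 it was 6.21 points (interval 0.817 to 11.0) and in ago9 it was 10.7 (interval 5.28 to 16.0). ATTRAPE stayed between 8.35 and 12.4 points in the mutants. The number of the 2 copies called higher in sperm in CG was 2 for wt21, 1 for ago5, 2 for ago9 and 0 for ago59. The background of all features was 26.9%, 26.3%, 26.8% and 27.7% in that order, and that of the other transposable element genes 78.8%, 80.8%, 77.8% and 81.0%.

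In CHG the sperm minus stem-cell difference of EVADE was 13.4 points in wt21 (interval 4.60 to 22.2), 4.75 for ago5, 9.51 for ago9 and -3.11 for ago59 (interval -11.8 to 6.26). ATTRAPE gave 10.9 for wt21, 15.8 for ago5, 4.71 for ago9 and 6.26 for ago59. The copies called higher were 2 for wt21, 1 for ago5, 0 for ago9 and 0 for ago59, with 9.88%, 6.94%, 9.19% and 7.51% of all features called. CHH moved the other way. All 8 differences were below 0, from -5.04 to -1.75 points, and all 8 intervals left out 0, with class medians between -4.24 and -4.04.

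Set side by side in each pool, EVADE was below ATTRAPE in CG in 7 of 8 pools, and 4 of the 8 intervals left out 0. These were wt21 stem-cell nuclei (-6.33 points), ago59 stem-cell nuclei (-11.2), ago5 sperm (-5.28) and ago59 sperm (-17.0, interval -23.7 to -10.7). In CHG EVADE was below ATTRAPE in 7 of 8 pools with 1 interval that left out 0, in ago9 stem-cell nuclei (-10.4 points). In CHH it was above ATTRAPE in 6 of 8 pools, with 3 intervals that left out 0. Reads shared between the copies would bring these levels together, and the share of such reads is not known here.

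The ends of each element, which are the bases of the element outside its gene row, hold the terminal repeats and were examined after their values had been seen. They cover 560 bases before and 546 after the gene row in EVADE and 560 and 549 in ATTRAPE. CHH methylation of ATTRAPE was higher in the ends than in the gene row in 8 of 8 pools. In the stem-cell pools the ends of ATTRAPE were at 9.01% in wt21 (39 of 433 calls), 17.1% for ago5, 12.2% for ago9 and 10.9% for ago59. In the sperm pools they were at 14.0% for wt21, 8.68% for ago5, 12.2% for ago9 and 17.0% for ago59 (46 of 271 calls). The excess over the gene row was between 2.56 and 14.4 points, and all 8 intervals left out 0. Every one of these sperm levels was above the chloroplast rate of its pool.

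The ends of EVADE had a different CHH pattern. In the stem-cell pools they were at 6.12% in wt21 (56 of 915 calls), 4.08% for ago5, 2.78% for ago9 and 6.08% for ago59. All 4 were below the gene row, by -0.796 to -3.70 points, and 2 intervals left out 0. In the sperm pools they were at 7.23% in wt21 (31 of 429 calls), 5.95% for ago5, 5.91% for ago9 and 6.94% for ago59. All 4 were above the gene row, by 2.87 to 4.44 points, and all 4 intervals left out 0. Each was also above the chloroplast rate of its pool, but the interval of the ago9 level (4.14 to 8.35) held that rate, 4.56%. The ends had between 2.23 and 2.58 CHH calls per cytosine in EVADE and between 0.824 and 1.23 in ATTRAPE in the stem-cell pools.

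In ago59 sperm the CG level of EVADE was lower in the gene row than in the ends. In the gene row 145 of 183 calls were methylated, against 26 of 27 in the ends (96.3%, interval 81.7 to 99.3), a difference between ends and gene row of 17.1 points (interval 1.57 to 24.2). In the other 3 sperm pools that difference was 3.78 in wt21, 5.44 in ago5 and 0.847 in ago9, and all 3 intervals held 0. The ends themselves differed from wt21, where 33 of 33 calls were methylated, by -3.70 points with an interval of -18.3 to 7.16. This interval holds both 0 and the -17.0 points of the gene row, so these calls set the ends apart from neither value. For the ago59 stem-cell pool the ends of EVADE had 36 of 54 CG calls methylated (66.7%), against 76.7% in the gene row. This difference between ends and gene row was -10.0 points, with an interval that held 0 (-24.0 to 2.05). The other stem-cell pools gave -7.38 points (ago5), -9.10 (ago9) and 5.04 (wt21), and their intervals held 0 too. In CHG the ends of EVADE were above the gene row in 8 of 8 pools, by 1.09 to 33.3 points, with 5 intervals that left out 0. Those of ATTRAPE were above it in 7 of 8 pools with 2 such intervals. Of 100-base windows in the ends, 20.2% of EVADE and 21.7% of ATTRAPE were unique after conversion, since the repeats resemble each other and further sequences. No sampled window that starts at positions 1 to 311 of either element was unique on either strand. Windows of that length in the first repeat thus cannot be assigned to a copy.

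The ends differed from wt21 in the mutants at several places where the gene rows did not differ beyond counting error, on few calls. In stem-cell CG the ends of EVADE were at 68 of 81 calls in wt21 (84.0%) and 36 of 54 in ago59, a difference of -17.3 points (interval -32.1 to -2.68), and 26 of 3787 transposable element genes were lower. Those genes are whole rows, of which 3639 had at least 50 calls in both pools. The ends are short and hold few calls, so this rank and the CHH rank below do not set like against like. Those of ATTRAPE were at 51 of 55 calls in wt21 (92.7%) and 29 of 37 in ago9 (78.4%), a difference of -14.3 points (interval -30.5 to -0.0485). The ends of EVADE in ago9 differed by -12.5 points with an interval that held 0 (-25.7 to 0.735). In stem-cell CHG the ago59 differences were 18.4 points for the ends of EVADE (interval -0.0156 to 36.0) and -19.0 for those of ATTRAPE (interval -36.2 to 1.19). Called in either direction in stem-cell CG were 9.03% of all features in ago9 and 9.07% in ago59, and 8.52% in CHG in ago59. Among the other transposable element genes these shares were 6.05%, 5.44% and 8.89%. In stem-cell CHH the ends of ATTRAPE were higher in ago5 than in wt21 by 8.08 points (interval 3.62 to 12.5), and 3794 of 3807 transposable element genes had a lower difference. The ends of EVADE in ago9 differed in CHH by -3.34 points (interval -5.31 to -1.40). In sperm nuclei every interval of the ends held 0, in all 3 contexts and all 3 mutants.

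**Figure D5:**
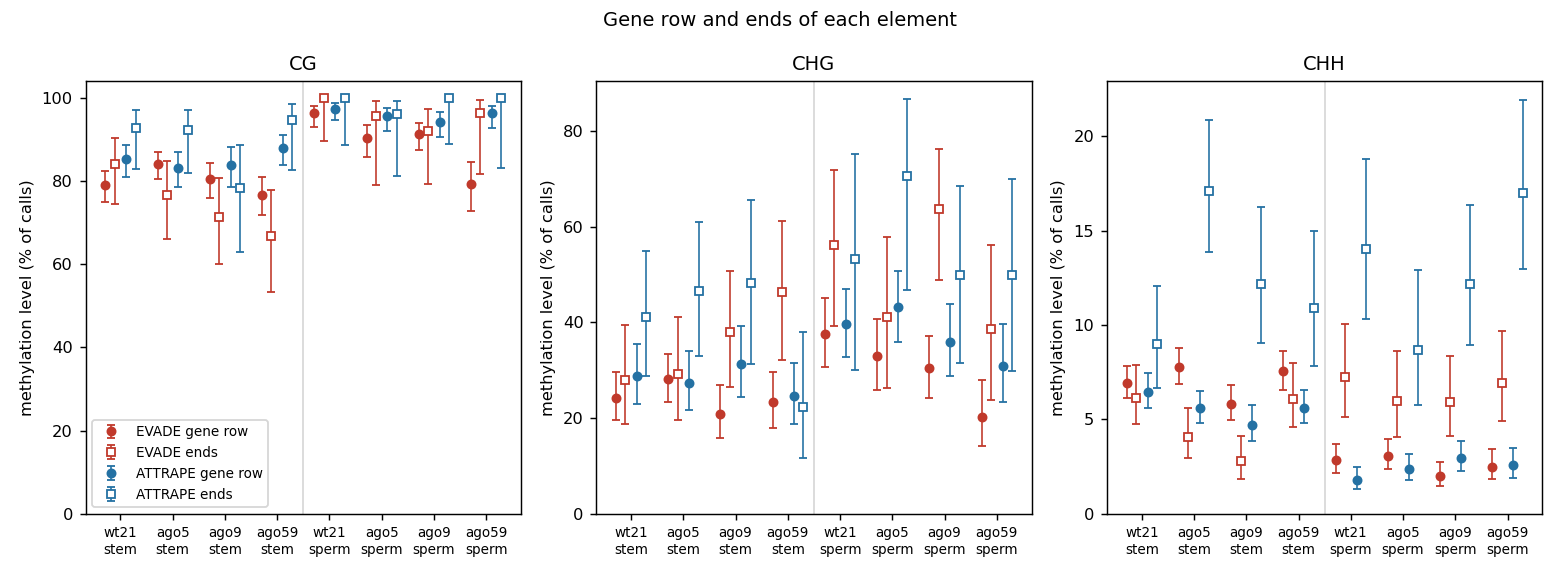
Methylation level in percent of calls of the gene row (filled circles) and of the ends (open squares) of EVADE (red) and ATTRAPE (blue) in the 8 pools, for CG, CHG and CHH. Bars are 95% Wilson intervals for counting error. In the CHH panel the ends of ATTRAPE stand above its gene row in all 8 pools, and those of EVADE do so in the 4 sperm pools.

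Further matches to EVADE of at least 80% identity over at least 200 bases were found on chromosomes 1, 3 and 4. A partial copy lies at chr1:12753506-12755470, with 99.2% identity to positions 3364 to 5333 of EVADE over 1972 aligned bases. Its end overlaps the first repeat of ATTRAPE, and it also matches the later part of the gene row. The transposable element gene AT1G34904, at chr1:12753487-12754922, covers most of it and was methylated at 80 of 114 CG calls in wt21 stem-cell nuclei (70.2%), 84 of 95 in ago5 (88.4%), 48 of 56 in ago9 (85.7%) and 93 of 118 in ago59 (78.8%). In sperm nuclei it was methylated at 67 of 72 calls in wt21, 52 of 52 in ago5, 46 of 50 in ago9 and 49 of 49 in ago59, so its ago59 sperm level was not below that of wt21. Copies of the repeat alone lie at chr3:8674784-8675191 (95.4% identity), chr3:10181983-10182388 (98.5%), chr3:16437034-16437423 (82.2%) and chr4:9496128-9496512 (91.5%). The row AT4TE42895 on the last of these had little CG methylation, with 0 of 116, 0 of 93, 0 of 106 and 7 of 125 calls in the stem-cell pools of wt21, ago5, ago9 and ago59. In the sperm pools it had 1 of 90, 1 of 82, 1 of 80 and 6 of 60.

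The genes next to EVADE were unmethylated. AT5G17110, AT5G17120, AT5G17130 and AT5G17140 had CG levels between 0 and 1.80% in all 8 pools. On the same chromosome EVADE lies 1557475 bases from AT5G21150, the gene of AGO9. Whether sequence linked to that gene differs in the ago9 and ago59 pools was not tested. The surroundings within 500000 bases on each side were chosen after values had been seen. There EVADE had 4 other transposable element genes, of which 0 were called lower in CG in ago59 sperm, with a range from -1.05 to 0.70 points. ATTRAPE had 58, of which 0 were called lower. With 2.35% of all features and 0.609% of the other transposable element genes called, such counts say little about the surroundings. In CHG 0 of 4 were called lower around EVADE and 7 of 57 around ATTRAPE, against 6.57% and 11.1%. The gene AT1G34844 before ATTRAPE was methylated at 2 of 724 CG calls in wt21 stem-cell nuclei, its lowest level, and at 15 of 653 in ago5 sperm, its highest. AT1G34790, which lies after it, was between 19.1% and 25.0% in stem-cell nuclei and between 24.8% and 38.2% in sperm nuclei. AT1G34792 had between 8 and 27 CG calls per pool, of which 69.6% to all were methylated.

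A list of 6 further silenced loci, AT2G13940, AT5G44925, AT3G11970, AT4G03650, AT2G12210 and AT2G23500, was set beside EVADE and ATTRAPE. In CG none of the 6 was called lower in ago59 sperm, with a median of 0.19 points and a range from -4.02 to 0.49. The share called was 2.35% of all features and 0.609% of the other transposable element genes. In CHG 2 of 6 were called lower, with a median of -5.92 points, against 6.57% of all features and 11.1% of the class. Between cell types in wt21, 6 of 6 were called higher in CG in sperm, with a median of 13.5 points against 13.0 in the class. Such calls covered 26.9% of all features and 78.8% of the class. EVADE in ago59 sperm lay below the whole range of this list in both CG and CHG, where the lowest member was at -13.0 points.

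Likeness to EVADE and ATTRAPE over the whole profile was measured as the Euclidean distance between the 24 levels of 8 pools and 3 contexts, among 3661 transposable element genes with at least 20 calls in all 24. AT5G26283, AT2G06140 and AT3G32195 were nearest to EVADE, at distances of 20.1, 20.6 and 22.0 points, against a median distance of 74.4. The genes nearest to ATTRAPE were AT5G38383, AT2G14535 and AT2G13170, at 13.3, 13.6 and 13.7 points, against a median of 56.7. EVADE and ATTRAPE were 30.1 points apart. Of the other genes, 25 were nearer to EVADE than ATTRAPE was, and 299 were nearer to ATTRAPE than EVADE was.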

How the data were processed

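Methylated and total cytosine calls per feature, context and pool were deposited by the authors as whole-number counts, per the file headers. A count is a sum of base calls over cytosines, not of reads. Levels were computed from these counts. The submitters' processing notes name Trim Galore, Bismark, bedtools 2.30.0 and the build TAIR10, without role or order. Read length, treatment of reads with several matches, conversion correction and summing of replicates or runs are not given in the sources used here. Of the 16 stem-cell samples, 8 are a second sequencing run. The labels list the molecule as RNA, but their protocol describes libraries from 1 to 5 ng of DNA made with the Pico Methyl-Seq kit. All 48 columns of counts were mapped to groups, and the 24 columns of deposited levels were not used. Calls within a transposable element row are counted again in the gene row that overlaps it.

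Levels carry Wilson 95% intervals, differences of levels carry Newcombe intervals, and the difference of 2 differences carries an interval from summed binomial variances. A replicate model had been planned only for the case of replicate columns. Differences of at least 10 points with at least 10 calls in each pool were called. EVADE and ATTRAPE were left out of the class of transposable element genes. The named features were both copies, the rows that overlap them, the nearest 2 rows on each side, rows that match EVADE, the 3 genes nearest in profile and a list of 6 loci. These members and lists were chosen with earlier results of these data known. Sequences were read from the reference TAIR10.1, on which 37799 of 37803 nuclear features with a locus tag have the same coordinates. Matches were found with blastn 2.17.0 and windows were compared by exact match. The cover of the Newcombe interval was tested on simulated data with independent calls, and the other intervals were not tested. Python 3.11.15, numpy 2.4.6, scipy 1.17.1, pandas 2.3.3, Biopython 1.88 and matplotlib 3.10.9 were used. Alternatives were the whole element in place of the gene row, correction with the chloroplast CHH level, both copies summed, other minimums of calls, and transposable element genes alone as background.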

Additional observations from a re-analysis of the deposited data

Results flagged for a closer look

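For EVADE in CG, the ago5 pools differed from wt21 in opposite directions in the 2 cell types, by -6.01 points in sperm and 5.09 in stem-cell nuclei, and the sperm difference minus the stem-cell difference was -11.1 points. For ATTRAPE in CHH, the ago9 pools also differed from wt21 in opposite directions, by 1.17 points in sperm and -1.72 in stem-cell nuclei, and the difference of these was 2.89 points. The ago9 sperm pool had a chloroplast CHH level of 4.56%, above the 2.97% of ATTRAPE in that pool. The second value changed sign under correction with the chloroplast level, as given in the next section. Corrected ago9 sperm values are not methylation levels, so this change does not measure the part of incomplete conversion, which was not tested. Neither difference between the cell types was tested, because the table holds 1 pool per group.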

How the results depend on the processing

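No paired analysis was possible because the columns carry no replicate number, and leaving out a replicate was not possible with 1 pool per group. Every CG and CHG level stayed inside its interval under the whole element and under chloroplast correction. CHH in sperm did not. Corrected sperm levels of wt21, ago5, ago9 and ago59 were 1.49%, 1.76%, -2.66% and 1.45% in EVADE and 0.443%, 1.04%, -1.66% and 1.53% in ATTRAPE, where values below 0 show that the chloroplast rate exceeded the level, so the corrected ago9 sperm values are not methylation levels. After correction, ago9 minus wt21 in sperm was -4.15 points in EVADE and -2.11 in ATTRAPE, sperm minus stem-cell nuclei in ago9 was -8.19 and -6.09, and the ago9 difference from wt21 in sperm less the one in stem cells was -3.05 and -0.375. Over the whole element, CHH was 2.81% in ago9 sperm and 3.53% in ago59 sperm for EVADE, and 7.18%, 5.82%, 3.23%, 4.30% and 4.64% in ago5 stem-cell, ago9 stem-cell, wt21 sperm, ago9 sperm and ago59 sperm pools for ATTRAPE. Sperm minus stem-cell CHH over the whole element was -3.36, -2.26 and -3.67 points in ago5, ago9 and ago59 for EVADE and -1.52 in ago59 for ATTRAPE, and EVADE minus ATTRAPE was -0.221 in ago5 and -0.753 in ago9 stem-cell nuclei. The whole element adds the ends, whose CHH levels differ from the gene row. With both copies summed, ago59 minus wt21 in sperm CG was -8.45 points, which ends the call of EVADE at 10 points, and ago9 minus wt21 in sperm CHH 0.165. With transposable element genes alone, the share called lower in ago59 sperm was 0.609% in CG and 11.1% in CHG. The share called higher in sperm was 78.8%, 80.8%, 77.8% and 81.0% in CG and 22.9%, 13.7%, 21.6% and 14.8% in CHG for wt21, ago5, ago9 and ago59. No value called at 10 points changed sign under the alternatives run. Depth is 1 limit of the sperm values, with 183 CG calls over 226 CG sites behind EVADE in ago59.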
